A study of Homo sapiens with 60 samples.

Results

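Of the 60675 genes in the count table, 6 are the mitochondrially encoded subunits of respiratory complexes III, IV and V, and they were followed in every library. They were taken by symbol, as all mtDNA genes that encode subunits of these complexes: MT-CYB (complex III), MT-CO1, MT-CO2 and MT-CO3 (complex IV), and MT-ATP6 and MT-ATP8 (complex V). They are 6 of the 37 genes of human mitochondrial DNA (mtDNA) and 6 of its 13 protein-coding genes, the other 7 of which encode complex I subunits. Each passed the low-count filter that left 17268 genes for testing.

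The RNA came from A549 cells, a long-established line grown from a human lung carcinoma of the non-small cell type. The cells were kept for 24 h with vehicle or with a hot-water extract of a medicinal plant or plant mixture. The study recorded how each extract alters the transcriptome of the line. Vehicle (3 libraries) was labelled 0.1% DMSO on its samples and 2% DMSO in the design text, and only these samples carry a DMSO label. Citri Unshius Pericarpium, Cimicifugae Rhizoma, Bupleuri Radix, Yijung-tang and Banhasasim-tang were given at 500 (high), 100 (medium) and 20 (low) µg/mL, with 3 libraries each. Aconiti Lateralis Radix Preparata, processed aconite root, was given at 360, 72 and 14.4 µg/mL, also with 3 libraries each, because extracts with an IC20 below the top dose were given at that IC20 and at dilutions of it. Bojungikgi-tang was given at 500, 100 and 20 µg/mL with 1 library each. Below, each extract goes by its first word. The sample labels put vehicle in a set of its own (B1), Citri and Cimicifugae in set 5, Bupleuri and Aconiti in set 6, Yijung and Banhasasim in set 7 and Bojungikgi in set 8. Set and extract therefore cannot be told apart in a comparison with vehicle, whereas doses of 1 extract, or extracts of 1 set, share a label. Nothing in the labels says that the 3 libraries of a group came from separate cultures, so p-values measure only the spread between libraries, which may be technical.

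Libraries held between 17793635 and 30188167 counts (median 25758890), with 22161 to 24008 genes above 0. The epithelial keratin KRT8 stood at 2521 to 4637 counts per 1000000 (CPM) and ALDH1A1, abundant in A549, at 5567 to 6808 CPM. The leukocyte gene PTPRC, the endothelial gene PECAM1 and the hepatocyte gene ALB had a median of 0 CPM. The fibroblast gene COL1A1, also listed as a marker of another cell type, was present at 11.9 to 44.6 CPM (median 32.8). EPCAM (3.19 to 7.36 CPM) and KRT19 (18.6 to 37.1 CPM), also listed as epithelial markers, were low, with medians below that of COL1A1. The first library of medium Citri stood apart from its group, with chi-square values of 114.1 and 113.5 per degree of freedom against the other 2 libraries, which gave 4.371 against each other. Its balance of long against short transcripts, as a log2 difference, was 3.42, beside 4.13 and 4.11 in those 2.

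Human mtDNA is a small circle whose 2 strands, heavy and light, are copied into long transcripts that run through many genes. Transfer RNAs lie between most genes and are cut out, which frees the individual messenger and ribosomal RNAs. All 6 genes described here are read from the long heavy-strand transcript. Their steady levels depend on transcription and on how long each RNA lasts, and the protein pair LRPPRC and SLIRP is known for keeping mitochondrial messenger RNAs stable. MT-CYB encodes cytochrome b, the subunit of complex III that passes electrons from ubiquinol. MT-CO1 and MT-CO2 hold the catalytic metal centres of cytochrome c oxidase, and MT-CO3 completes its core. MT-ATP6 encodes the subunit through which protons pass in ATP synthase, and MT-ATP8 a short subunit of the same membrane part.

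Gene ends are shown because they decide which reads can belong to which gene. Each line gives the opening bases of the coding sequence of a complex IV or V subunit as read from GENCODE 29 on GRCh38, 5′ to 3′ on the plus strand of the reference, with the start codon in capitals.
MT-CO1: ATGttcgccgaccgttgactattctctaca
MT-CO2: ATGgcacatgcagcgcaagtaggtctacaa
MT-CO3: ATGacccaccaatcacatgcctatcatata
MT-ATP6: ATGaacgaaaatctgttcgcttcattcatt
MT-ATP8: ATGccccaactaaatactaccgtatggccc

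In the closing bases of the 6 genes, capitals mark the last codon, or the single base left over after the last whole codon. MT-CYB and MT-CO3 end in such a lone T, which polyadenylation is known to complete to a stop codon, and MT-CO1 ends in AGA.
MT-CYB: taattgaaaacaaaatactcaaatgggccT
MT-CO1: ttcgaagaacccgtatacataaaatctAGA
MT-CO2: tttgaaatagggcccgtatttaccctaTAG
MT-CO3: tgtatgtctccatctattgatgagggtctT
MT-ATP6: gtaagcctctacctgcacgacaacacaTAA
MT-ATP8: tcgcttcattcattgcccccacaatccTAG

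MT-CYB (ENSG00000198727, 1141 bases) lies at chrM:14747-15887 and is followed directly by the transfer RNA gene MT-TT. MT-CO1 (ENSG00000198804, 1542 bases) lies at chrM:5904-7445 and MT-CO2 (ENSG00000198712, 684 bases) at chrM:7586-8269. MT-ATP8 (ENSG00000228253, 207 bases, chrM:8366-8572), MT-ATP6 (ENSG00000198899, 681 bases, chrM:8527-9207) and MT-CO3 (ENSG00000198938, 784 bases, chrM:9207-9990) follow each other with no transfer RNA between them. These genes have no introns, and the positions are those of the annotated exon. MT-ATP8 and MT-ATP6 share 46 bases, which is 22.2% of MT-ATP8, and MT-ATP6 and MT-CO3 share 1 base. The shared stretch is in capitals in the whole MT-ATP8 sequence, shown because reads that reach into it overlap both genes.
MT-ATP8: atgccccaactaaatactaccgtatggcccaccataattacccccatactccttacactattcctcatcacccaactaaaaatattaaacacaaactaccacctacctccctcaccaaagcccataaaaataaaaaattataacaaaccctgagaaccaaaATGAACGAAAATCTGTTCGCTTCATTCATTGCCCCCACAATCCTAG

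Nuclear DNA holds near-identical copies of several of these genes. MTCO1P12 on chromosome 1 matched MT-CO1 at 98.7% of bases, and 402 of 1443 windows of 100 bases were identical in both. MTATP6P1, on the same chromosome, matched MT-ATP6 at 98.5%, with 69 of 582 such windows identical. MTATP6P1 was listed at a mean of 682 CPM and MTCO1P12 at 64.2 CPM over the 60 libraries. The counter divides reads that fit several genes by estimation, so the values of MT-CO1, MT-CO2, MT-CO3, MT-ATP6 and MT-ATP8 carry that uncertainty. MT-CYB was not compared with any nuclear copy, so whether its values carry it too was not tested. Copies of MT-CO2 (98.2% of bases, 14 of 585 windows identical) and MT-CO3 (98.2%, 30 of 685 windows) lie on chromosome 1 as well, listed at means of 0.179 and 0.315 CPM. The labels name a directional library kit, but the strand setting of the counting is not given, so RNA from the opposite strand cannot be told apart from the genes' own.

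In vehicle, MT-CO1 had the highest level in CPM, 14594 ± 554 (SD, n = 3), followed by MT-CO3 at 9325 ± 327, MT-CO2 at 5129.6 ± 222, MT-ATP6 at 4320.3 ± 336, MT-CYB at 3781 ± 406 and MT-ATP8 at 304 ± 32.6. Counts were also divided by the whole gene length, and on that scale the order was different. MT-CO3 led with 11894 ± 417 CPM per kilobase, ahead of MT-CO1 with 9464 ± 359, MT-CO2 with 7499 ± 325, MT-ATP6 with 6344 ± 494, MT-CYB with 3314 ± 356 and MT-ATP8 with 1469 ± 158. Each of these gaps exceeded the larger SD of the 2 neighbouring genes. Read length (100 bases) was not allowed for, which weighs most on MT-ATP8 with its 207 bases. The gap between MT-ATP8 and MT-ATP6, which also overlap, therefore need not be a difference in RNA level. The members together took 3.82% ± 0.0969 of all counts in vehicle.

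With the high and the medium dose of Aconiti, MT-CYB rose and the complex IV subunits and MT-ATP6 fell, and MT-ATP8 passed the test at the high dose. Against vehicle the high dose changed 6 of 6 members, MT-CYB 2.59-fold up and the others to between 0.428 and 0.602 of vehicle. This share stands against 32.7% of all genes tested that were called in the same comparison. The medium dose changed 5 of 6 members, in a comparison that called 2.29% of genes. The low dose changed none, with 0.0695% of genes called, 0 members at an unadjusted p under 0.05 in edgeR and 0 calls by DESeq2. The test was the quasi-likelihood test of edgeR, with p-values adjusted by Benjamini-Hochberg over all 17268 genes, and a gene is called at an adjusted p under 0.05. In bulk RNA, fewer cells of one kind and less RNA per cell cannot be told apart.

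**Figure D1:**
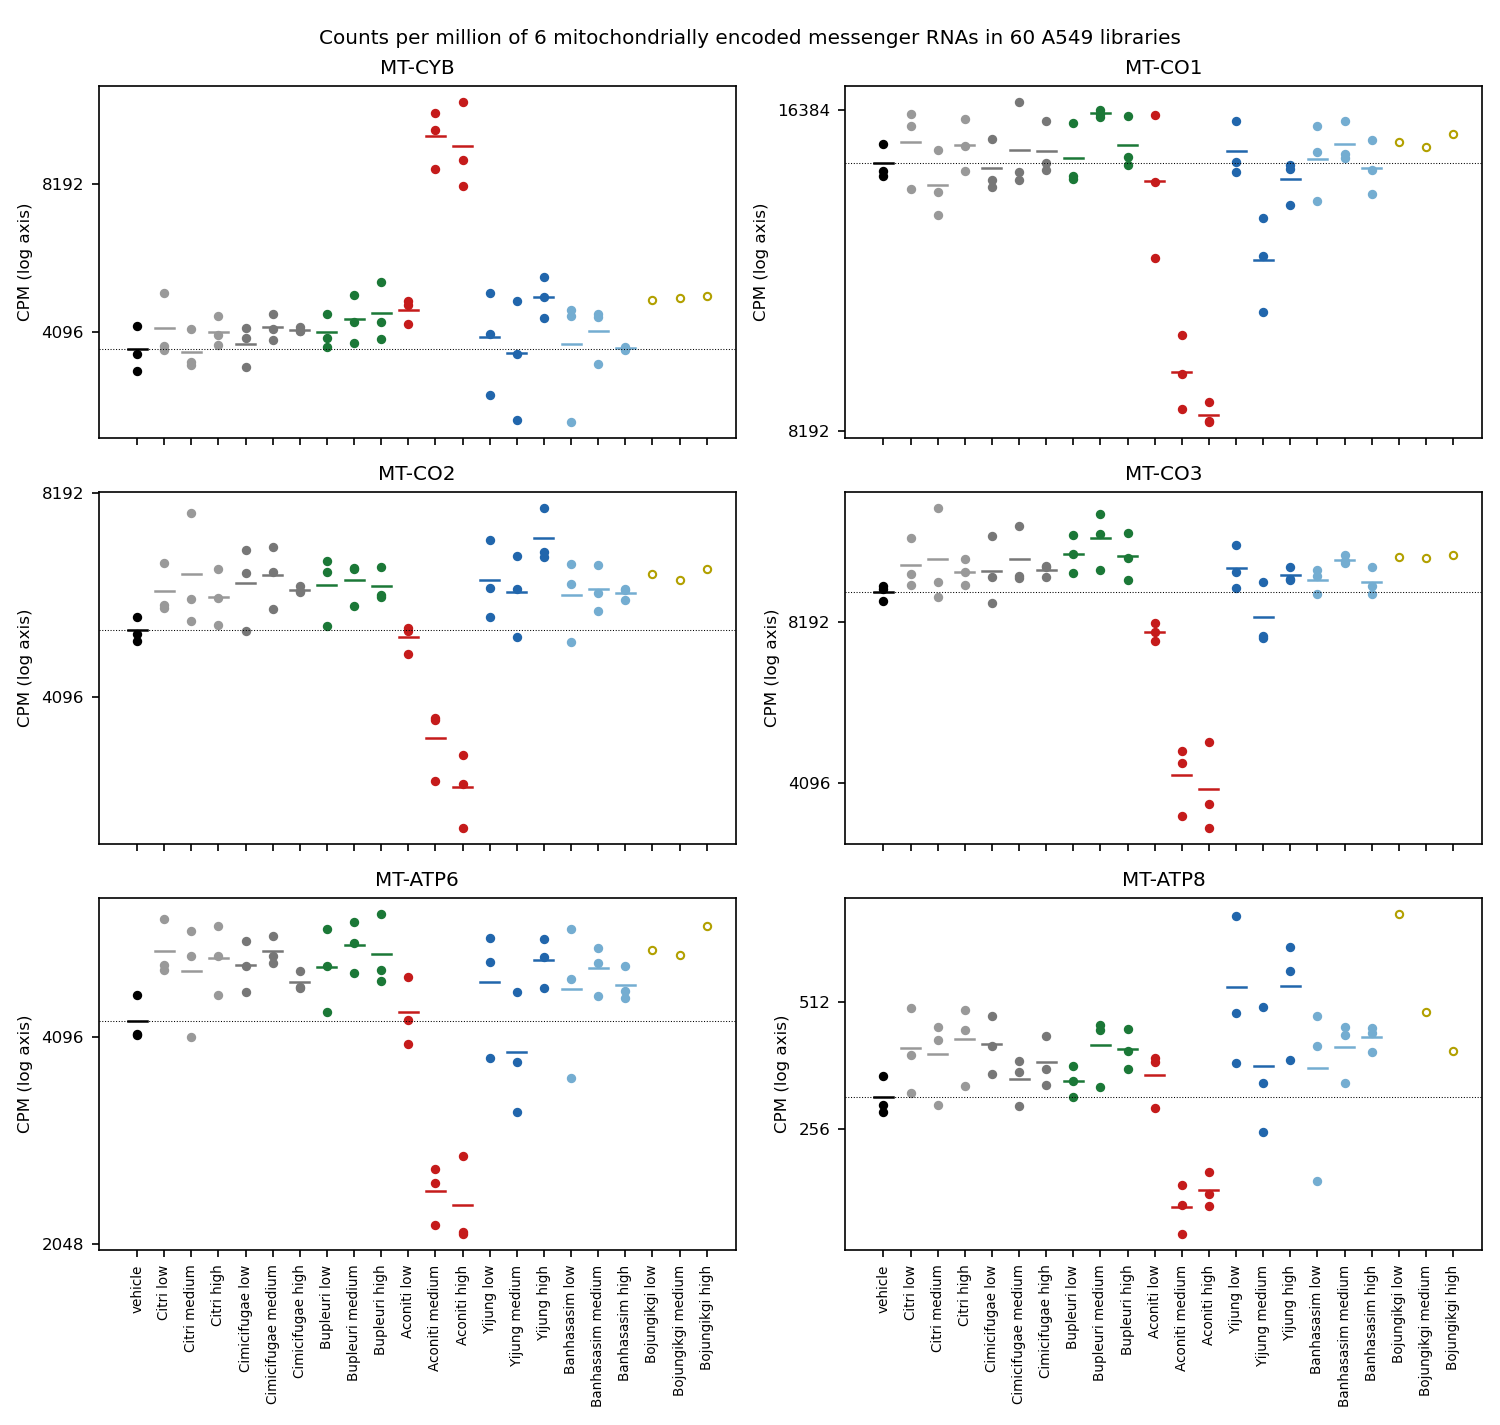
CPM of each gene in 60 libraries, 1 point per library, on log axes that differ between panels; short bars are means of the groups of 3, the dotted line is the vehicle mean and open circles are the Bojungikgi groups of 1 library. Red points at the medium and high Aconiti doses lie above all other groups for MT-CYB and below them for MT-CO1, MT-CO2, MT-CO3 and MT-ATP6, while for MT-ATP8 1 library of low Banhasasim, at 192 CPM, falls among them.

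MT-CYB, the complex III subunit, stood at 3704, 3419 and 4219.9 CPM in the vehicle libraries. It stood at 9192, 8127 and 12032 CPM with high Aconiti, at 8793, 10568 and 11409 CPM with medium Aconiti, and at 4652, 4737 and 4267 CPM with low Aconiti. All 6 libraries of the medium and high doses lay above every vehicle library, and the low-dose libraries also lay just above vehicle without overlap. Of all genes tested, 41.6% had groups that did not overlap between high Aconiti and vehicle, 27.9% between medium Aconiti and vehicle, and 14.1% between low Aconiti and vehicle. The log2 fold against vehicle was 1.37 ± 0.17 (SE, edgeR adjusted p = 1.1e-08) at the high dose and 1.44 ± 0.17 (edgeR adjusted p = 3.7e-08) at the medium dose. At the low dose it was 0.27 ± 0.16 (edgeR adjusted p = 0.915), which is no call. Among all genes tested, 232 had a larger log2 rise than MT-CYB at the high dose and 97 at the medium dose.

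MT-CO1, the largest catalytic subunit of complex IV, stood at 15228, 14207 and 14347 CPM in vehicle and at 8368, 8360.5 and 8726 CPM with high Aconiti. With medium Aconiti it stood at 8596, 10090.4 and 9265 CPM, and with low Aconiti at 16212, 14015 and 11906 CPM. The medium and high groups lay wholly below vehicle, while the low-dose libraries spread to both sides of it. The log2 fold was -0.78 ± 0.086 (SE, edgeR adjusted p = 1.0e-09) at the high dose and -0.65 ± 0.086 (edgeR adjusted p = 9.3e-07) at the medium dose.

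MT-CO2, which receives electrons from cytochrome c, stood at 5064, 4948 and 5377 CPM in vehicle. It stood at 2620.3, 3045 and 3362 CPM with high, 3073, 3780.1 and 3802 CPM with medium, and 5163, 5121 and 4739.7 CPM with low Aconiti. Again the medium and high groups did not overlap vehicle and the low group did. The log2 fold was -0.77 ± 0.12 (SE, edgeR adjusted p = 2.8e-06) at the high dose and -0.53 ± 0.12 (edgeR adjusted p = 0.0075) at the medium dose. The medium-dose call was lost without Aconiti medium replicate 1 (log2 fold -0.44, adjusted p = 0.0885).

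MT-CO3 fell furthest. It stood at 9571, 8954 and 9449 CPM in vehicle, at 3370.1, 3728 and 4874 CPM with high Aconiti and at 3546, 4458 and 4696 CPM with medium Aconiti. With low Aconiti it stood at 8147, 7842 and 7551 CPM, all below vehicle but near it. The log2 fold was -1.22 ± 0.13 (SE, edgeR adjusted p = 2.0e-10) at the high dose, -1.14 ± 0.13 (edgeR adjusted p = 1.3e-08) at the medium dose and -0.25 ± 0.13 (edgeR adjusted p = 0.915) at the low dose. Among all genes tested, 195 had a larger log2 fall at the high dose and 106 at the medium dose.

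MT-ATP6, whose product forms the proton path of ATP synthase, stood at 4119, 4134 and 4708 CPM in vehicle. It stood at 2133, 2121 and 2749 CPM with high, 2184, 2637 and 2512 CPM with medium, and 5009, 4333 and 4003 CPM with low Aconiti. The medium and high groups lay apart from vehicle and the low group overlapped it. The log2 fold was -0.89 ± 0.15 (SE, edgeR adjusted p = 7.3e-06) at the high dose and -0.82 ± 0.15 (edgeR adjusted p = 0.00033) at the medium dose. Its copy MTATP6P1 was listed at 17.3% to 20.2% of the MT-ATP6 count in the 6 libraries of medium and high Aconiti and at 11.1% to 16.5% in the 51 libraries without Aconiti, which do not overlap. In low Aconiti it ran from 11.5% to 16.6%. MTATP6P1 itself was not called at either dose (log2 fold -0.26 and -0.37). Of 3 copies tested, only MTCO1P12 fell (log2 fold -0.83 at the high and -0.71 at the medium dose). It was listed at 0.421% to 0.481% of the MT-CO1 count in those 6 Aconiti libraries. In the 51 libraries without Aconiti it ran from 0.253% to 0.556%, so its ratio to MT-CO1 did not set the groups apart.

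MT-ATP8, the shortest member and the lowest in CPM, stood at 292, 341 and 279.7 CPM in vehicle. It stood at 179, 168 and 202 CPM with high, 144, 188 and 169 CPM with medium, and 286, 368 and 378 CPM with low Aconiti. Medium and high groups were again below vehicle without overlap. At the high dose the log2 fold was -0.73 ± 0.25 (SE, edgeR adjusted p = 0.0234). At the medium dose it was -0.87 ± 0.25 (edgeR adjusted p = 0.0589), which misses the threshold. The high-dose call was lost without vehicle replicate 2 (adjusted p = 0.0886), Aconiti high replicate 1 (0.0557) or Aconiti high replicate 2 (0.0949).

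**Figure D2:**
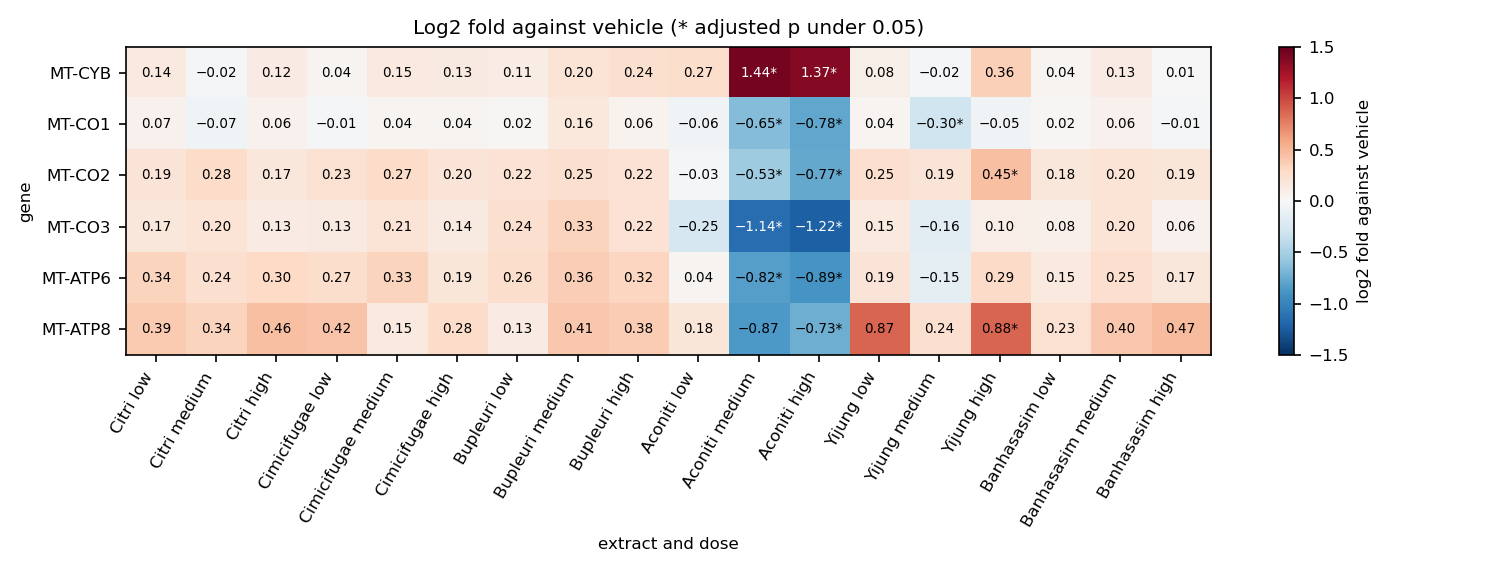
Log2 fold of each gene (rows) against vehicle for 18 extract doses (columns), coloured from blue (lower) to red (higher), with an asterisk where the adjusted p was under 0.05. Asterisks gather in the medium and high Aconiti columns, where MT-CYB is at 1.44 and 1.37 and MT-CO3 at -1.14 and -1.22.

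Within set 6 the same members were set against Aconiti low and against Bupleuri, which removes the difference in set label. The high against the low Aconiti dose changed 6 of 6 members (22.7% of all genes called), with log2 folds of 1.10 for MT-CYB, -0.73 for MT-CO1, -0.73 for MT-CO2, -0.98 for MT-CO3, -0.93 for MT-ATP6 and -0.91 for MT-ATP8. Medium against low dose also changed 6 of 6, in a comparison where only 0.527% of genes were called. There the log2 folds were 1.17, -0.59, -0.50, -0.89, -0.86 and -1.04 in the same order. In that comparison MT-CO1 (edgeR adjusted p = 0.198) and MT-CO2 (0.156) were not called when only the 6 libraries compared were fitted, which left 4 of 6 members. The call of MT-CO2 was also lost without any 1 of the 6 libraries (adjusted p from 0.0674 to 0.481). That of MT-ATP8 was lost without any 1 medium-dose library or without low-dose replicate 2 or 3 (0.0948 to 0.314). High and low groups did not overlap for any member, as for 29.7% of all genes. Both comparisons share the low-dose libraries, so they are not independent of each other.

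High Aconiti (360 µg/mL) against high Bupleuri (500 µg/mL) changed 6 of 6 members, with 23.1% of genes called, and medium against medium dose (72 against 100 µg/mL) 6 of 6, with 1.26% called. MT-CO3 had a log2 fold of -1.45 ± 0.13 (SE, edgeR adjusted p = 3.1e-12) at the high doses and -1.47 ± 0.13 (edgeR adjusted p = 1.4e-11) at the medium doses. In Bupleuri itself MT-CO3 stood at 10811, 9827 and 11999 CPM at the high dose, all above vehicle. High-dose groups did not overlap for any member, nor for 34.8% of all genes. MT-CYB was higher with Aconiti by 1.13 ± 0.17 and 1.24 ± 0.17 on the log2 scale at these 2 dose levels. No Bupleuri dose changed a member against vehicle in edgeR or DESeq2, with 0.712% of genes called by edgeR at the high dose and 0 at the medium and low doses. At an unadjusted p under 0.05 there were 1, 3 and 0 members, from the high to the low dose.

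The step from medium to high Aconiti, moved no member past the threshold in edgeR or DESeq2, nor past an unadjusted p of 0.05, although edgeR called 12.5% of all genes. MT-CYB had a log2 difference of -0.07 ± 0.16, MT-CO3 of -0.09 ± 0.13 and MT-CO2 of -0.24 ± 0.12 (SE, edgeR adjusted p = 0.852, 0.744 and 0.216). The groups overlapped for all 6 members. By contrast, 6 of the 7 complex I subunits of mtDNA fell and both ribosomal RNAs rose between these doses. This comparison was added after the data had been seen. So was the test of whether the step from low to high dose differed between Aconiti and Bupleuri, which 6 of 6 members and 9.95% of all genes passed. No member passed the same test for Citri and Cimicifugae (0.0579% of genes) or for Yijung and Banhasasim (1.31%), in which the smallest edgeR adjusted p was 0.751.

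The other mtDNA genes did not form 1 direction either. Both ribosomal RNAs rose at the high Aconiti dose, MT-RNR1 of the small subunit from 1570.4 ± 107 to 40960 ± 4693 CPM (log2 fold 4.71) and MT-RNR2 of the large subunit from 21720 ± 1040 to 104111 ± 10701 CPM (log2 fold 2.26). Of the 7 complex I subunits, MT-ND5 (1.10) and MT-ND6 (1.12) rose and MT-ND3 (-0.87), MT-ND4L (-1.15) and MT-ND4 (-1.05) fell in log2 fold, while MT-ND1 and MT-ND2 were not called. Along the molecule, MT-CO1 to MT-ND4 were at negative folds at the high dose. MT-ND5, MT-ND6 and MT-CYB, which lie next to each other at the far end, were at positive ones. MT-ND6 is the only one of these genes that belongs to the light-strand transcript. At the medium dose MT-ND5 (2.52), MT-ND6 (2.61) and MT-ND2 (0.93) rose and MT-ND4L (-1.16) fell.

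**Figure D3:**
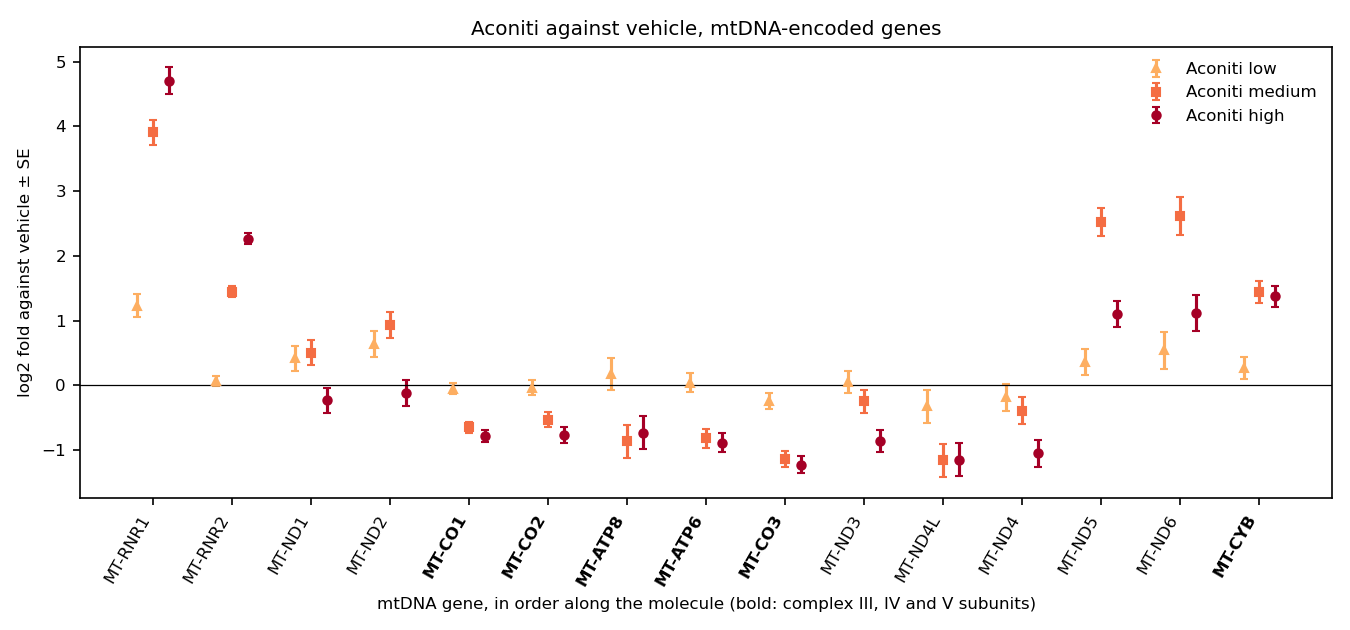
Log2 fold against vehicle with its SE for 15 mtDNA genes in order along the molecule, at 3 Aconiti doses, with the complex III, IV and V subunits in bold. The block from MT-CO1 to MT-CO3 lies below 0 at the medium and high doses, and MT-CYB at the right edge lies at 1.44 and 1.37.

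The share of all mtDNA genes in the counts and the share of the members moved in opposite directions. The 2 ribosomal RNAs took 2.37% ± 0.0999 of counts in vehicle and 13.3% ± 0.854 with high Aconiti (SD, n = 3). The 37 genes took 8.30% ± 0.342 of counts in vehicle and 17.5% ± 1.31 with high Aconiti (SD, n = 3). Over the same groups the 6 members went from 3.82% ± 0.0969 to 2.54% ± 0.258, with 2.81% ± 0.253 for the medium dose and 3.63% ± 0.368 for the low one. The exact two-sided permutation p was 0.1 for the high and the medium dose, the smallest that 3 against 3 libraries allow, and 0.6 for the low dose. A p of 0.1 in this test was not particular to Aconiti. High Citri, high and medium Cimicifugae, every Bupleuri dose, high Yijung and medium Banhasasim also reached it, with a share above vehicle. At the remaining doses of these extracts the permutation p ran from 0.2 to 0.6. Adding the nuclear copies gave 3.88% in vehicle and 2.59% with high Aconiti.

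The balance among mitochondrial messenger RNAs does not depend on library scaling. It was measured as each member's share of the counts of the 13 protein-coding mtDNA genes. MT-CYB held 6.24% to 6.94% of that pool in vehicle, 14.3% to 16.9% with medium Aconiti and 19.9% to 22.7% with high Aconiti. MT-CO1 held 23.6% to 25.9% in vehicle, 13.7% to 13.9% with the medium and 16.4% to 20.4% with the high dose. MT-CYB passed MT-CO1 as the larger share in 5 of these 6 Aconiti libraries. The members as a whole held 64.5% ± 1.29 of the pool in vehicle, 44.4% ± 2.36 with medium and 60.6% ± 1.73 with high Aconiti, and MT-ND5 held 4.58% ± 0.396, 22.6% ± 1.99 and 12.4% ± 1.97.

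**Figure D4:**
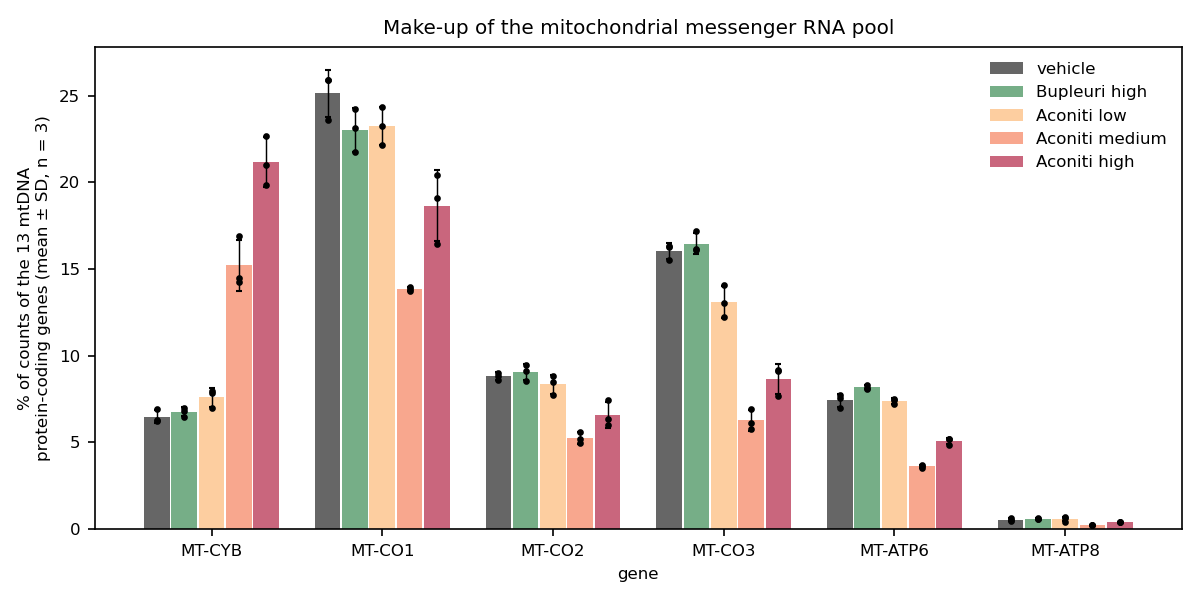
Share of the counts of the 13 mtDNA protein-coding genes held by each member, as mean with SD (bars, n = 3) and single libraries (points), in vehicle, Bupleuri high and 3 Aconiti doses. MT-CYB rises from 6.49% in vehicle to 21.2% with high Aconiti, and the other members are lower there than in vehicle.

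Medium and high Aconiti (6 libraries) were set against medium and high Bupleuri (6 libraries) on the log2 share. MT-CYB averaged 18.2% ± 3.51 against 6.53% ± 0.339 (SD, n = 6), a log2 difference of 1.46. MT-CO3 averaged 7.47% ± 1.47 against 16.7% ± 0.703, a log2 difference of -1.19, and MT-CO1 16.2% ± 2.94 against 23.3% ± 1.39, a log2 difference of -0.54. MT-CO2 (-0.60), MT-ATP6 (-0.92) and MT-ATP8 (-0.91) were lower as well. For each of the 6 members the libraries did not overlap, and the exact two-sided permutation p was 0.0022, the smallest that 924 arrangements allow. The share of all genes without overlap between these pooled groups is not given here, so this count cannot be set against it. These 6 tests use shares of 1 pool, which are not independent. Medium and high doses were pooled on each side, so the SD includes the difference between doses. The MT-CYB shares of medium Aconiti (up to 16.9%) and high Aconiti (from 19.9%) did not overlap. The permutation p treats libraries of both doses as exchangeable.

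Ratios between members give the same measurement within a library. The MT-CYB count was 0.243, 0.241 and 0.294 times the MT-CO1 count in vehicle. It was 1.10, 0.972 and 1.38 times with high Aconiti, and 1.02, 1.05 and 1.23 times with medium Aconiti. Low Aconiti gave 0.287, 0.338 and 0.358, and the 51 libraries without Aconiti ran from 0.200 to 0.368. The MT-CO3 to MT-CO1 ratio was 0.403 to 0.559 in the 6 Aconiti libraries and 0.593 to 0.976 in those 51, with low Aconiti at 0.503 to 0.634 reaching into both ranges. The first medium Citri library alone set the upper end, and the next highest of the 51 was 0.866. MT-ATP8 to MT-ATP6, the pair that shares bases, was at 0.0658 to 0.0840 with medium and high Aconiti and at 0.0537 to 0.152 in the 51 without Aconiti, so these ranges overlap.

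**Figure D5:**
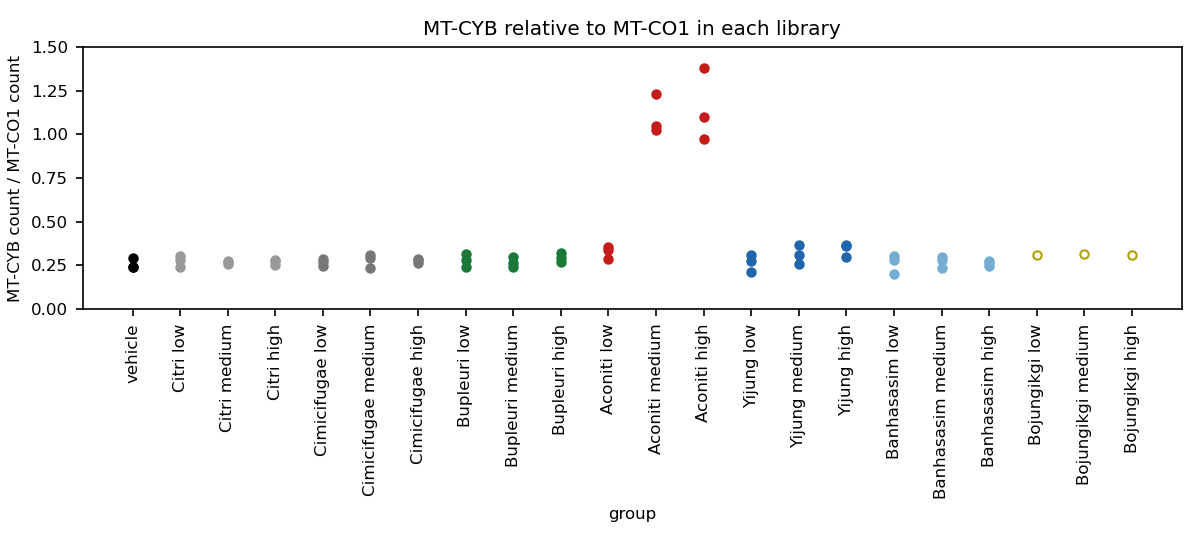
MT-CYB count divided by MT-CO1 count in each of 60 libraries, by group, on a linear axis from 0. The 6 libraries of medium and high Aconiti lie between 0.972 and 1.38, and the 51 libraries without Aconiti between 0.200 and 0.368.

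Outside Aconiti few members changed. Yijung high dose raised MT-CO2 (log2 fold 0.45 ± 0.12, SE, edgeR adjusted p = 0.0127) and MT-ATP8 (0.88 ± 0.25, edgeR adjusted p = 0.0232), 2 of 6 members where 7.09% of genes were called. MT-ATP8 stood there at 373, 607 and 695 CPM, and MT-CO2 at 6708, 7777 and 6587 CPM, above the vehicle libraries in each case. Both calls were lost without vehicle replicate 1 or Yijung high replicate 2, that of MT-CO2 also without vehicle replicate 2, and that of MT-ATP8 also without vehicle replicate 3 or Yijung high replicate 3. Without 1 of these libraries the adjusted p ran from 0.0549 to 0.126 for MT-CO2 and from 0.0947 to 0.123 for MT-ATP8.

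Yijung medium dose lowered MT-CO1 (log2 fold -0.30 ± 0.086, SE, edgeR adjusted p = 0.0189), 1 of 6 members where 7.85% of genes were called. MT-CO1 stood at 10600.2, 11959.6 and 12966 CPM, all below vehicle. It was also called against Yijung low (-0.34, with 6.31% of genes called) and against Banhasasim medium (-0.36, with 7.04% called), each 1 of 6 members. Without Yijung medium replicate 1, which had the lowest value, none of the 3 calls held (edgeR adjusted p = 0.208, 0.114 and 0.0661). The call against vehicle was also lost without vehicle replicate 1 (0.0999) and that against Yijung low without Yijung low replicate 2 (0.0735). In Yijung medium the CPM of MT-CYB ran from 2722 to 4734 and that of MT-ATP6 from 3184 to 4751, with the lowest value in replicate 1 each time.

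No member was called at the other 14 extract doses against vehicle, where 0 to 1.96% of genes were called, nor in the other 13 comparisons between doses or extracts, by edgeR or DESeq2. Genes called against vehicle were 0.0463%, 0.0174% and 0.00579% for high, medium and low Citri, 1.96%, 0.0347% and 0.0116% for Cimicifugae, and 0.185%, 0 and 0 for Banhasasim, with 0.0116% for low Yijung. High against low dose called 0.0232% of genes for Citri, 1.34% for Cimicifugae, 0.353% for Bupleuri, 4.93% for Yijung and 0.127% for Banhasasim. Medium against low dose called 0.00579%, 0.0116%, 0 and 0 for Citri, Cimicifugae, Bupleuri and Banhasasim. Between extracts, Citri against Cimicifugae called 0.689% at the high and 0.0174% at the medium dose, and Yijung against Banhasasim 4.79% at the high dose. At an unadjusted p under 0.05 edgeR gave 11 of 84 member tests at these 14 doses and 2 of 78 in the 13 comparisons. The share of all genes at an unadjusted p under 0.05 is not given here for any comparison. Such counts of members therefore cannot be set against it, and the 84 tests share the vehicle libraries. Over the 15 doses of the 5 other extracts the log2 fold of MT-CO2 ran from 0.17 to 0.45 and that of MT-ATP8 from 0.13 to 0.88, above 0 at 15 of 15 doses for both. MT-CO1 ran from -0.30 to 0.16 and was above 0 at 10 of 15 doses. These doses share the 3 vehicle libraries, which carry a set label of their own, so the common sign is not independent evidence. Bojungikgi, with no replicate, had 4849, 4802 and 4758 CPM of MT-CYB and 392, 485 and 830.0 CPM of MT-ATP8 at the high, medium and low dose.

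Ordered by mean CPM over 19 groups, most neighbouring groups differed by less than the larger of their SDs. This held for 17 of 18 neighbouring pairs for MT-CYB, MT-CO3, MT-ATP6 and MT-ATP8, and for 15 of 18 for MT-CO1 and MT-CO2. For MT-CYB the 1 wider gap lay between high Aconiti and the next group, Yijung high at 4839.7 CPM. For MT-CO3 it lay between low Aconiti at 7847 CPM and medium Aconiti at 4234 CPM. The median SD within a group was 5.86% of the mean for MT-CO1 and 15.95% for MT-ATP8, the least precise member.

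Members were compared with each other and with other genes over the 19 group means of log2 CPM, as a description. MT-CYB had a Pearson r of -0.79 to -0.91 with the other 5 members over 19 groups, but 0.47 to 0.69 over the 16 groups without Aconiti. The mtDNA gene most like MT-CYB was MT-RNR1 (r = 0.96). MT-CO3 and MT-ATP6 were each other's nearest (r = 0.98), the nearest of MT-CO1 was MT-ATP6 (0.97), that of MT-CO2 was MT-CO3 (0.95) and that of MT-ATP8 was MT-CO2 (0.91). Among 10912 nuclear genes with at least 5 CPM, the 3 most like the mean of the 6 members were PDCL (0.88), BAG3 (0.85) and TROAP (0.85). The points share libraries and scaling, and the 2 changed Aconiti groups weigh on every r.

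The nuclear partners of these subunits moved little. At the high Aconiti dose 1 of 9 nuclear complex III subunits rose (CYC1, cytochrome c1, log2 fold 0.40), 2 of 11 of complex IV (COX6A1 at 0.38 and COX5A at 0.36) and 1 of 16 of complex V (ATP5F1D at 0.57), and none fell. The share called in each of the 3 lists was below the 32.7% over all genes. Their median log2 folds were 0.16, 0.29 and 0.05, beside -0.00 over all genes tested. At the medium dose edgeR called 0 of these 36 genes, with 3 at an unadjusted p under 0.05. Of 29 assembly factors 7 rose and 4 fell at the high dose, beside the same 32.7% of all genes called. Those that rose included SURF1 (0.69), OXA1L (0.36) and TACO1 (0.35), which serves the making of the MT-CO1 protein. Those that fell included COX16 (-0.41), COX20 (-0.32) and SCO1 (-0.21).

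Among 14 genes of mtDNA replication and transcription 3 rose and 4 fell at the high dose, where 32.7% of all genes were called. TFB1M, which modifies the small ribosomal RNA, rose by 0.72 in log2 fold, TOP1MT by 0.50 and MTERF3 by 0.25. The genes that fell were led by MTERF1 (-0.54), the packaging and transcription factor TFAM (-0.24) and the helicase TWNK (-0.18). Of 22 genes of RNA processing, stability and decay 2 rose (FASTK at 0.38 and SUPV3L1 at 0.18) and 9 fell, which is 11 of 22 beside the same 32.7%. The falls were led by FASTKD5 (-0.60), PDE12 (-0.44) and TRMT10C (-0.40). FASTKD5 is known for processing precursors whose ends are not set by transfer RNAs. The RNA polymerase POLRMT (0.07), LRPPRC (0.00) and SLIRP (0.06) were not called. At the medium dose 1 of the 22 genes (FASTKD5, -0.23) and 0 of the 14 were called, a share near the 2.29% over all genes. Of 6 tested regulators of mitochondrial biogenesis, ESRRA (0.34) rose and GABPA (-0.48) and NRF1 (-0.30) fell at the high dose, again beside 32.7% of all genes.

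Library quality was set beside these results. The balance of long against short transcripts, as a log2 difference, ran from 3.85 to 4.15 in the medium and high Aconiti libraries and from 4.11 to 4.22 in vehicle. With that balance as a covariate the high-dose log2 folds were 1.40 for MT-CYB, -0.73 for MT-CO1 and -1.36 for MT-CO3. Total counts were 22734210 to 29930609 in those Aconiti libraries and 18894726 to 26324262 in vehicle.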

How the data were processed

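The authors deposited expected counts per gene, estimated with RSEM 1.3.3 from STAR 2.7.3a alignments to GRCh38 after FastQC 0.11.9 and Trim Galore 0.6.5, per the submitters' processing notes. The annotation release and the strand setting are not given in the sources used here. The table has 269 sample columns, of which 60 are used and the other 209 are not used here. Expected counts were rounded to whole numbers (9.37% of values were not whole). Of 60675 gene identifiers, 57055 are in GENCODE 29, which gave symbols, coordinates and sequences.

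Counts were scaled by TMM, filtered with filterByExpr to 17268 genes and fitted with edgeR 4.0.16 (R 4.3.3) quasi-likelihood over 19 groups of 3 libraries (biological coefficient of variation 10.1%, 38 residual degrees of freedom). Benjamini-Hochberg adjustment ran over all genes, with a threshold of 0.05. Bojungikgi stayed outside the model. The 37 comparisons were 18 doses against vehicle, 6 high against low, 6 medium against low, 6 between extracts of 1 set and 1 added after the data were seen. The differences between steps of dose were also added then. Shares of the 13 mtDNA messenger RNAs were compared by exact two-sided permutation of libraries on log2 shares. CPM are TMM-scaled. Depth ran from 17793635 to 30188167 counts. All members are named, and from each other list up to 3 genes called in high Aconiti against vehicle in each direction, by size of log2 fold, plus TFAM, POLRMT, LRPPRC and SLIRP whatever their result.

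The members and lists were chosen with earlier results of these data known. Alternatives were RLE size factors, library totals alone, scaling without mtDNA genes, no filter, the replicate number as a block, a length covariate, only the 6 libraries compared, DESeq2 1.42.0 and leaving out each library. In simulated data for high Aconiti against vehicle over 17024 genes, edgeR recovered 76 of 100 genes changed 1.5-fold and 100 of 100 changed 2-fold, with 10 false calls in all. Every gene was simulated at the same dispersion, and libraries differed only in depth and in the changed genes. These figures therefore need not hold for the members. No 2 libraries of a group agreed within sampling noise. A small number of items are not reported here.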

Additional observations from a re-analysis of the deposited data

Results flagged for a closer look

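The step from low to high dose differed between Aconiti and Bupleuri, the extracts of set 6, for all 6 members. The difference itself was tested as a contrast in edgeR, added after the data were seen, and 9.95% of genes passed. MT-CYB went up by 1.10 on the log2 scale from low to high Aconiti and by 0.13 from low to high Bupleuri, a difference of 0.97 (edgeR adjusted p = 0.0035). For the catalytic subunits MT-CO1 and MT-CO2 the difference was -0.77 (edgeR adjusted p = 1.2e-05) and -0.73 (0.0031). MT-CO3 differed by -0.96 (edgeR adjusted p = 0.00016). The ATP synthase subunits MT-ATP6 and MT-ATP8 differed by -0.99 (edgeR adjusted p = 0.00090) and -1.16 (0.0286). The low and high doses were 14.4 and 360 µg/mL for Aconiti and 20 and 500 µg/mL for Bupleuri. Over 8 other settings the MT-CYB difference ran from 0.83 to 0.99 and the MT-CO3 difference from -1.11 to -0.94.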

How the results depend on the processing

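No member that was called changed direction under any alternative. For members not called, changes of sign were not counted. Members called with medium or high Aconiti kept their direction in 14 of 14 alternatives, and the count against vehicle stayed at 5 to 6 (high) and 4 to 6 (medium), where MT-ATP8 was called under 6 alternatives. Counts of members called changed elsewhere, for causes that were not tested. For these changes the share of all genes called under the same setting is not printed, so the counts cannot be set against it. With only the 6 libraries compared, Cimicifugae high and Bupleuri high against vehicle gave 3 members in place of 0 and Banhasasim high 1 in place of 0, while Yijung medium gave 0 in place of 1 against vehicle, Yijung low and Banhasasim medium, and medium against low Aconiti gave 4 in place of 6 (without MT-CO1 and MT-CO2). Leaving out 1 library, Citri medium against vehicle gave 0 to 1 (MT-CO2, without Citri medium replicate 2), Yijung high against vehicle 0 to 2, and Yijung medium 0 to 1 against vehicle and 0 to 3 against Yijung low and against Banhasasim medium. The last comparison gave 2 with library totals alone and with DESeq2 and 3 with the length covariate, which also made 1 call (MT-CO2) in high against medium Aconiti. Over all genes, same-numbered libraries all deviated together (r over 0.1) in 1 of 37 comparisons. Replicate 1 still had the lowest MT-CYB to MT-CO1 ratio in each Yijung and Banhasasim group, at 0.200 to 0.301. In vehicle, low Citri and high Bupleuri, among others, that ratio was lowest in replicate 2. The MT-CO3 to MT-CO1 ratio rose from replicate 1 to 3 at each Aconiti dose. Whether replicate numbers mark shared handling was not tested. The replicate block moved medium Aconiti against vehicle from 5 to 6 members, and all genes called there from 396 to 394. MT-ATP8 had the widest spread of the members, with a median SD of 15.95% of its group mean, and what sets it was not tested.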
